A study of Mus musculus with 2 samples.

Results

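Mir23b, Mir27b and Mir24-1 on mouse chromosome 13, and Mir23a, Mir27a and Mir24-2 on chromosome 8, form a pair of paralogous microRNA clusters. They were found by gene identifier in the table of each library, where all 6 were present among 2202 annotated microRNA genes. The samples were hearts of adult female mice of 8 to 10 months, labelled 5xFAD/CAST. The 5xFAD name stands for a transgenic model of Alzheimer disease whose transgenes are driven by the neuronal Thy1 promoter, and CAST for an inbred line of wild mouse origin. The labels do not state whether these animals carried the transgenes. There were 2 microRNA-seq libraries of 1 group, labelled biological replicates 1 and 2, and no control, so every value below comes from animals of this one label. One donor identifier is given for both libraries, with different biosamples. Differences between them may therefore be technical.

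MicroRNAs of about 22 bases are cut from hairpin precursors and pair with messenger RNAs chiefly through their seed, bases 2 to 8. Genes of the miR-23, miR-27 and miR-24 families are transcribed together as one primary transcript at each of these loci, and both clusters are known from endothelium, where miR-23 and miR-27 promote the sprouting of vessels. In mouse heart muscle, miR-23a is known as a promoter of hypertrophy that represses the ubiquitin ligase gene Trim63, miR-27b as a repressor of Pparg, and miR-24 as a repressor of the pro-apoptotic gene Bcl2l11. Both clusters are also expressed in many other cell types, and in whole heart RNA fewer cells of a type and less RNA per cell cannot be told apart.

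The mature arms are shown first, because they decide which reads could be assigned to a locus. RefSeq (build GRCm38.p6) listed 10 distinct arms for the 6 genes, and its hairpin coordinates equalled those of the gene annotation for 6 of 6. miR-23b-3p was not analysed here, so only the 5p arm of Mir23b enters the comparisons of mature arms. Capitals mark the seed.
miR-23b-5p: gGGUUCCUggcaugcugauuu
miR-23a-5p: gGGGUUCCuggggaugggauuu
miR-23a-3p: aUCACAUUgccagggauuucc
miR-27b-5p: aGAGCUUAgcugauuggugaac
miR-27a-5p: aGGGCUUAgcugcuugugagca
miR-27b-3p: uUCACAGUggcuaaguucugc
miR-27a-3p: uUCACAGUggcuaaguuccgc
miR-24-1-5p: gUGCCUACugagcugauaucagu
miR-24-2-5p: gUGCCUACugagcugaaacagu
miR-24-3p: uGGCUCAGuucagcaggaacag

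The 3p arms of Mir27b and Mir27a carried the same seed and differed at 1 of 21 bases, U19C, counted from 1 at the 5′ end with the base of miR-27b-3p first. Their 5p arms differed at 8 of 22 bases when compared position by position, with no gap allowed. The seeds of miR-23a-3p and miR-27a-3p differed at 1 of 7 bases, U7G, with the base of miR-23a-3p first. miR-24-3p was encoded identically by Mir24-1 and Mir24-2, whereas their 5p arms shared their first 16 bases and differed from base 17 on. A full-length miR-24-3p read therefore matched both loci.

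The precursors show how far each pair could be told apart. The longest run shared between paralogous hairpins was 20 bases for Mir23b and Mir23a, 20 for Mir27b and Mir27a, and 28 for Mir24-1 and Mir24-2. In Mir23a and in both Mir27 genes the run covered the first 18 of the 21 bases of the 3p arm, so a read cut short at that point matched both loci. In the Mir24 genes it covered all 22 bases of the 3p arm with 3 bases on either side. The hairpins of the Mir27 and Mir24 pairs are given with the shared run in capitals, at chr13:63300712-63300784, chr8:84208672-84208758, chr13:63301208-63301275 and chr8:84208815-84208921, all on the plus strand of GRCm38.
Mir27b: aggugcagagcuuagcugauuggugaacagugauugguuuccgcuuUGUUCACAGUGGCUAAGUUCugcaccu
Mir27a: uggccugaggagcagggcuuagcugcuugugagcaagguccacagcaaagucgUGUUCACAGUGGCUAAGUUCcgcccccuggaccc
Mir24-1: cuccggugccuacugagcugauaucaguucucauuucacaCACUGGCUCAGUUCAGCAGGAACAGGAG
Mir24-2: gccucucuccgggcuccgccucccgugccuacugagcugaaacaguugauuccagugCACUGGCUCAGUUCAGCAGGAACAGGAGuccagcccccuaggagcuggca

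The clusters kept the same gene order, 23, 27, 24, on the plus strand of both chromosomes, with wider spacing on chromosome 13. Mir23b began at position 63300484 of chromosome 13 and the cluster spanned 792 bases, with 154 bases between Mir23b and Mir27b and 423 between Mir27b and Mir24-1. Mir23a began at position 84208518 of chromosome 8, where the cluster spanned 404 bases with gaps of 79 and 56 bases. The chromosome 13 genes lay within 2010111I01Rik, a protein-coding gene on the same strand, and within Fancc, a Fanconi anemia repair gene on the opposite strand. Mir23b was intronic in both, while Mir27b and Mir24-1 overlapped an annotated exon of 2010111I01Rik. Mir23a and Mir27a lay in no other annotated gene. Mir24-2 overlapped the first 2 bases of the lincRNA gene Gm26532 on its strand, and the nearest protein-coding gene, Zswim4 on the minus strand, lay 1757 bases away.

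**Figure D1:**
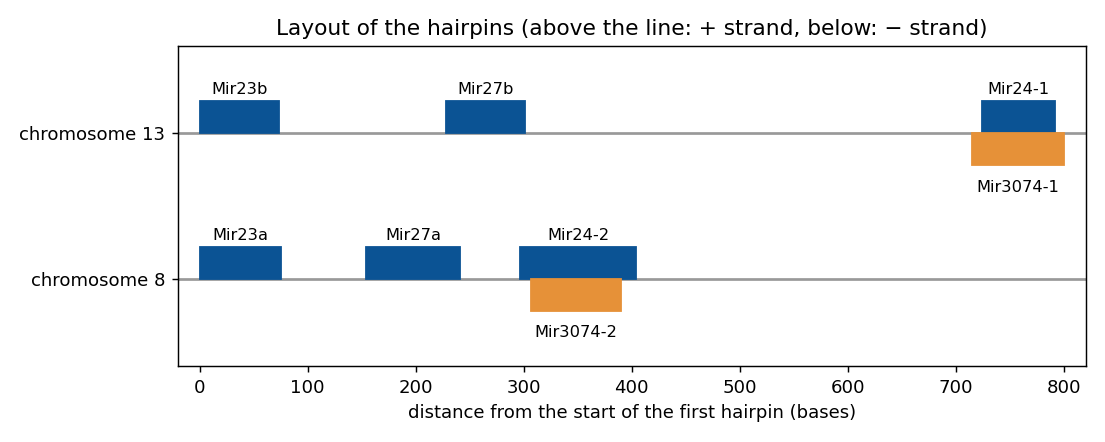
Hairpins of both clusters, to scale, with distance in bases from the start of the first hairpin on the x axis. The plus-strand members (blue) stand in the same order on both chromosomes over 792 bases on chromosome 13 and 404 bases on chromosome 8, and a Mir3074 gene (orange) lies opposite each Mir24 gene.

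MicroRNA genes received 4186560 counts in replicate 1 and 2877511 in replicate 2, which is 31.6% and 32.2% of all reads. A count of 0, taken as at most 3 counts, allows up to 0.717 and 1.04 counts per 1000000 (CPM) in these libraries. Reads at several loci, 42.4% and 43.2% of all reads, were assigned to no gene, so every level below refers to reads unique to a locus. The heart muscle genes Mir499 and Mir208a averaged 4202 and 1356 CPM, the endothelial gene Mir126a 110547 CPM, and the neuronal genes Mir124a-1, Mir124a-2 and Mir124a-3 had no count. The muscle genes Mir1a-1, Mir133a-1 and Mir133a-2, each encoded at several loci, stood at 2.64 CPM or less, and Mir1a-2 had 304 and 194 counts. The liver gene Mir122 had 19.1 CPM in replicate 1 and 57.3 CPM in replicate 2, lower in replicate 1 as the Mir23 genes were, and its part in their difference was not tested.

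The 6 genes took up 10.5% of the gene counts of replicate 1, with an exact 95% Clopper-Pearson interval from 10.46% to 10.52%. They took up 16.7% of those of replicate 2, with an interval from 16.68% to 16.77%, and 13.6% ± 4.41 on average (SD, n = 2). Nearly all of this came from the Mir23 genes. Mir23b and Mir23a together supplied 92.0% of the members' counts in replicate 1 and 96.2% in replicate 2. Mir27b and Mir27a supplied 7.69% in replicate 1 and 3.68% in replicate 2, and Mir24-1 and Mir24-2 0.360% and 0.150%. These and later intervals reflect counting error alone and take reads as independent. Amplified reads with no molecular identifier cannot be treated as independent molecules, so the intervals may be too narrow. As a share of all reads, unassigned ones included, the 6 genes held 3.32% in replicate 1 and 5.39% in replicate 2.

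Other abundant genes differed in share between the libraries as well. Mir126a held 17.4% of the counts in replicate 1 and 4.68% in replicate 2, and Mir22 held 5.46% and 0.908%. With both genes left out of the denominator, the 6 members held 13.6% in replicate 1 and 17.7% in replicate 2.

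The Mir23 genes, whose main product in textbook accounts is the 3p arm, stood among the most abundant of all. Mir23b had 212447 counts or 50745 CPM in replicate 1 and 267474 counts or 92953 CPM in replicate 2. Its rank by CPM was 6 in replicate 1 and 3 in replicate 2. Mir23a had 191495 counts or 45740 CPM in replicate 1, rank 7, and 195328 counts or 67881 CPM in replicate 2, rank 4. Both genes were higher in replicate 2, and Mir23b exceeded Mir23a in each library. Over libraries their levels overlapped, at 71849 ± 29846 CPM for Mir23b and 56811 ± 15656 for Mir23a (SD, n = 2).

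The Mir27 genes were far lower and lay apart from each other. Mir27b had 25757 counts or 6152 CPM in replicate 1 and 13235 counts or 4599 CPM in replicate 2. Mir27a had 8023 counts or 1916 CPM in replicate 1 and 4495 counts or 1562 CPM in replicate 2. Both were lower in replicate 2, the opposite of the Mir23 genes, and the ranges of Mir27b and Mir27a did not overlap. By mean level Mir27b stood at rank 26 and Mir27a at rank 45.

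The Mir24 genes had few unique reads. Mir24-1 had 427 counts or 102 CPM in replicate 1 and 410 counts or 142 CPM in replicate 2. Mir24-2 had 1153 counts or 275 CPM in replicate 1 and 314 counts or 109 CPM in replicate 2. The order of the pair thus differed by library, with Mir24-2 higher in replicate 1 and Mir24-1 higher in replicate 2. Their mean ranks were 126 for Mir24-1 and 108 for Mir24-2. Because miR-24-3p reads match both loci, these counts are lower limits on each gene's reads, and they do not bound the level of miR-24 from above. Counts were per gene, so arms were not measured separately.

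**Figure D2:**
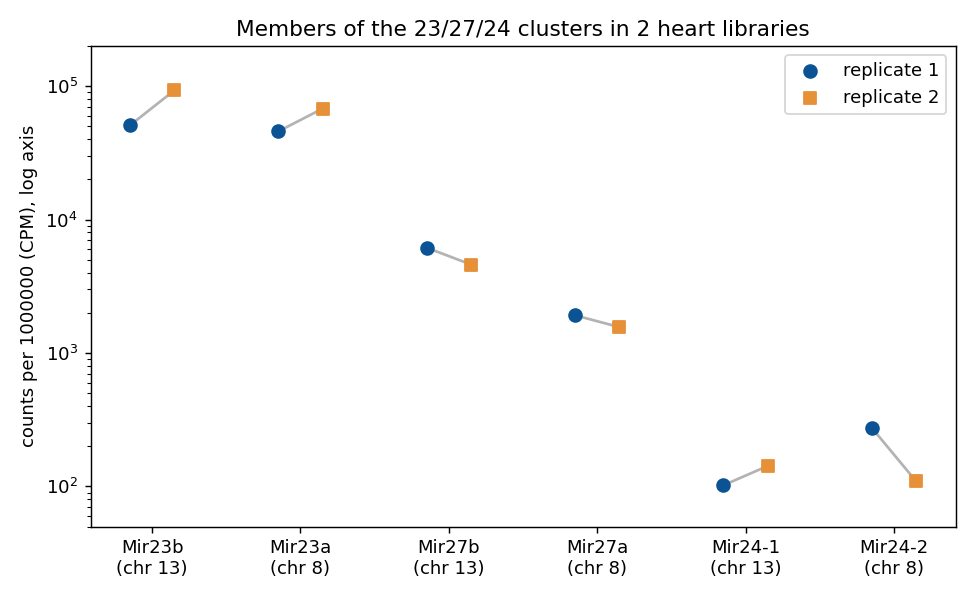
CPM of each member (counts per 1000000) on a log axis in replicate 1 (circles) and replicate 2 (squares), joined by a line. Mir23b and Mir23a lie between 45740 and 92953 CPM, Mir27b and Mir27a between 1562 and 6152 CPM, and Mir24-1 and Mir24-2 between 102 and 275 CPM.

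Within a library, ratios between members do not depend on scaling. The chromosome 13 cluster had 238631 counts and the chromosome 8 cluster 200671 in replicate 1, a ratio of 1.19 (exact 95% interval 1.18 to 1.20). In replicate 2 they had 281119 and 200137, a ratio of 1.40 (1.40 to 1.41). The chromosome 13 cluster was thus higher in both libraries, at a mean ratio of 1.30 ± 0.152 (SD, n = 2). Without the Mir24 genes the mean ratio was also 1.30. It could hardly have moved, because these genes supplied only 0.360% and 0.150% of the members' counts in replicates 1 and 2. The cluster ratio thus mainly reflects the Mir23 genes.

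The paralog ratio was not the same along the clusters. Mir23b over Mir23a was 1.11 in replicate 1 (1.10 to 1.12) and 1.37 in replicate 2 (1.36 to 1.38), averaging 1.24 ± 0.184 (SD, n = 2). Mir27b over Mir27a was 3.21 in replicate 1 (3.13 to 3.29) and 2.94 in replicate 2 (2.85 to 3.05), averaging 3.08 ± 0.188 (SD, n = 2). The Mir27 ratio exceeded the Mir23 ratio in both libraries by more than the spread between them. Mir24-1 over Mir24-2 was 0.370 in replicate 1 (0.331 to 0.414) and 1.31 in replicate 2 (1.12 to 1.52), so its intervals lay on either side of 1 and its mean, 0.838 ± 0.661, describes neither library.

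Genes of one cluster, although known to come from one primary transcript, differed widely in counts. Mir23b over Mir27b was 8.25 in replicate 1 (8.14 to 8.36) and 20.2 in replicate 2 (19.9 to 20.6). Mir23a over Mir27a was 23.9 in replicate 1 (23.3 to 24.4) and 43.5 in replicate 2 (42.2 to 44.8). The excess of Mir23 over Mir27 was larger on chromosome 8 than on chromosome 13 in each library, and larger in replicate 2 than in replicate 1 at each locus. Mir27b over Mir24-1 was 60.3 and 32.3, and Mir27a over Mir24-2 was 6.96 and 14.3, in replicates 1 and 2. These ratios compare counts of unique reads. The listed arms are 21 to 23 bases long, so no scaling by length was applied. The share of each gene's reads lost to several loci was not measured.

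**Figure D3:**
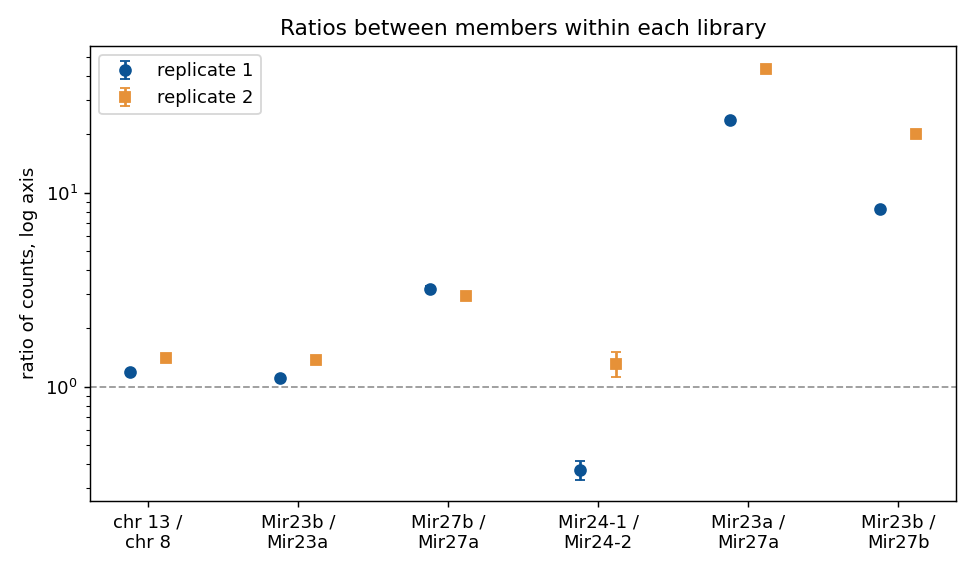
Ratio of counts between members within each library on a log axis, with exact 95% intervals that are often smaller than the symbol. The intervals cover counting error alone, with reads taken as independent. The dashed line marks 1. Mir27b over Mir27a lies at 3.21 and 2.94, and Mir24-1 over Mir24-2 lies at 0.370 in replicate 1 and 1.31 in replicate 2.

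The position of the Mir24 genes was set beside that of genes with the same limit. Of 1032 genes with a RefSeq entry, 57 had one mature arm that another gene also encoded and one of their own, as the Mir24 genes do. The median gene of the 57 had 12.6 CPM (interquartile range 0.239 to 122), and Mir24-2 and Mir24-1 stood at positions 12 and 15 from the top. The highest of them, Mirlet7f-2, had 4903 CPM. Mir24-1 was exceeded by 14 of the 57, and Mir27b by none of them. The 926 genes with no shared arm listed had a median of 0.239 CPM, and 97 of them exceeded Mir24-1 and 21 exceeded Mir27b. These classes rest on listed arms only, so some of the 926 can share an arm that is not listed. Mir1a-1, named above as encoded at several loci, fell among them with 1 arm listed. Mir23a, Mir27b and Mir27a had no listed arm in common with another gene, and neither did Mir23b, by its 5p arm alone.

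**Figure D4:**
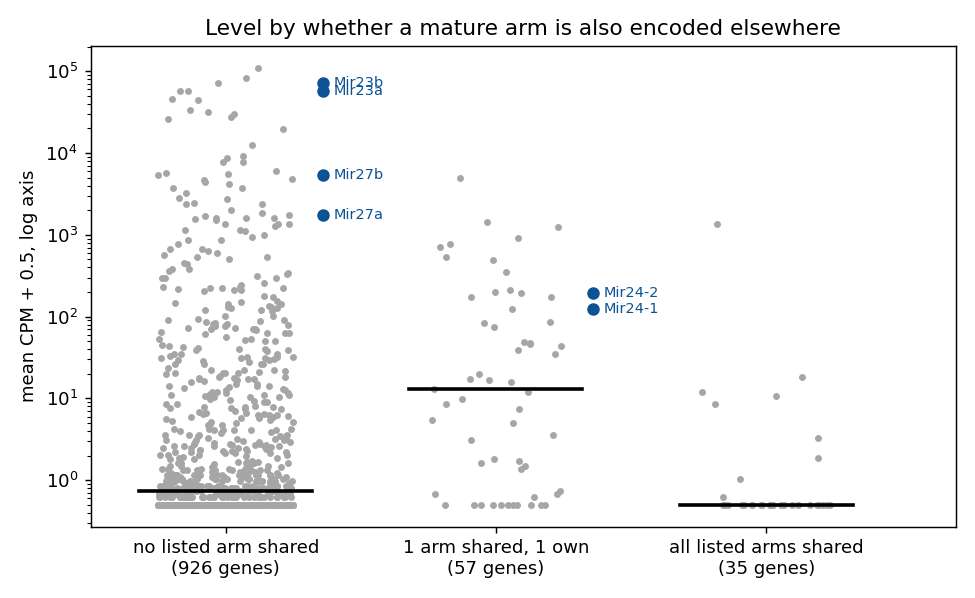
Mean CPM plus 0.5 on a log axis for genes grouped by whether their listed mature arms are also encoded by another gene, 1 grey point per gene with the group median as a bar. Mir24-2 and Mir24-1 (blue, 192 and 122 CPM) lie above the median of 12.6 CPM of the 57 genes with one shared arm.

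Each Mir24 gene lies opposite a Mir3074 gene, whose hairpin is read from the other strand. Mir3074-1, opposite Mir24-1, had 47 counts in replicate 1 and 26 in replicate 2, so the Mir24-1 strand had 9.09 and 15.8 times as many. Mir3074-2, opposite Mir24-2, had 2 counts in replicate 1 and 0 in replicate 2, at or below the limit of 3 counts. The plus strand thus held most unique reads at both positions. Mir3074-1 and Mir3074-2 also share an arm, miR-3074-5p, so the limit of the Mir24 genes holds for both. Only 1 arm, the shared one, is listed for Mir3074-1, whereas Mir24-1 also has its own 5p arm. An arm missing from the listing would not be seen, so whether the limit is stricter for Mir3074-1 is not known. When strand was ignored, Mir24-1 and Mir24-2 had 0 counts in both libraries, because reads in overlapping genes were then assigned to neither.

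Other genes with these seeds had fewer unique reads than the Mir27 genes. The seed of miR-27-3p also occurs 1 base earlier in miR-128-3p (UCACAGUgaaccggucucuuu, seed letters of miR-27 in capitals), encoded by Mir128-1 and Mir128-2. Mir128-1 had 1004 counts or 240 CPM in replicate 1 and 447 counts or 155 CPM in replicate 2, and Mir128-2 had 88 and 34 counts. Both lay far below Mir27b and Mir27a among unique reads, but Mir128-1 averaged 198 CPM, beside 192 for Mir24-2 and 122 for Mir24-1. The Mir128 genes share their 3p arm with each other, so these counts do not bound the level of miR-128-3p from above. The seed of miR-24-3p was also listed for Mir6413, Mir6410, Mir6369 and Mir5124b, each with 0 counts in both libraries.

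By level and library pattern together, the nearest genes to each member were mostly non-members on other chromosomes. Likeness was the Euclidean distance in log2(CPM + 0.5) over the 2 libraries. Mir23b lay nearest to Mirlet7b (distance 0.33), then Mir23a (0.48) and Mirlet7g (0.61). Mir23a lay nearest to Mirlet7g (0.26), then Mirlet7i (0.46) and Mir23b (0.48). Mir27b was closest to Mirlet7f-2 (0.26), Mir34a (0.32) and Mirlet7e (0.45), and Mir27a to Mir130a (0.14), Mir423 (0.26) and Mir10a (0.31). Mir24-1 was closest to Mir467e (0.21), Mir664 (0.21) and Mir224 (0.27), and Mir24-2 to Mir152 (0.49), Mir128-1 (0.55) and Mir339 (0.57). Only the Mir23 genes had a member among their nearest 3. With 2 libraries this measure mainly reflects level.

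All 6 members differed between the libraries beyond counting error in exact two-sided binomial tests with Benjamini-Hochberg adjustment over 309 genes. That background was high: 63.4% of all genes tested differed, 28.2% higher and 35.3% lower in replicate 1. Of the members, Mir27b, Mir27a and Mir24-2 were higher in replicate 1, and Mir23b, Mir23a and Mir24-1 were lower. These tests compare 2 libraries and not conditions. They treat reads as independent, which cannot be assumed for amplified reads with no molecular identifier. The common coefficient of variation from edgeR, a relative spread beyond counting error, was 0.414 over the 309 genes. Members had 314 counts or more in each library, and genes with fewer counts pass such tests less readily. The 63.4% is thus a low mark for genes of the members' depth.

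The sizes were moderate for these libraries. Log2 ratios are replicate 1 over replicate 2, scaled by TMM. Mir23b had a log2 ratio of -0.94 (exact 95% interval -0.95 to -0.94) and Mir23a of -0.64 (-0.65 to -0.63). Mir27b had 0.35 (0.32 to 0.38, adjusted exact binomial p = 2.61e-114) and Mir27a 0.22 (0.17 to 0.28, p = 2.04e-16). Mir24-1 had -0.55 (-0.75 to -0.35, adjusted exact binomial p = 8.04e-08) and Mir24-2 had 1.26 (1.08 to 1.45, p = 7.24e-49). Both Mir23 genes also passed the threshold of 0.05. The median gene tested had a log2 ratio of -0.01 and differed 1.43-fold in either direction. Mir27a (1.17-fold) and Mir27b (1.27-fold) lay below that, whereas Mir24-1 (1.47-fold), Mir23a (1.56-fold), Mir23b (1.93-fold) and Mir24-2 (2.40-fold) lay above it.

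The log2 ratios of the Mir23 paralogs lay close together, as did those of the Mir27 paralogs. Mir23b and Mir23a differed by 0.30 on the log2 scale, and Mir27b and Mir27a by 0.12. On chromosome 13, Mir23b and Mir27b differed by 1.29, and on chromosome 8, Mir23a and Mir27a differed by 0.86. The cluster neighbours Mir23b and Mir24-1 differed by 0.39, nearly as little as the Mir23 paralogs and in the same direction. The paralogs Mir24-1 and Mir24-2 differed by 1.82.

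**Figure D5:**
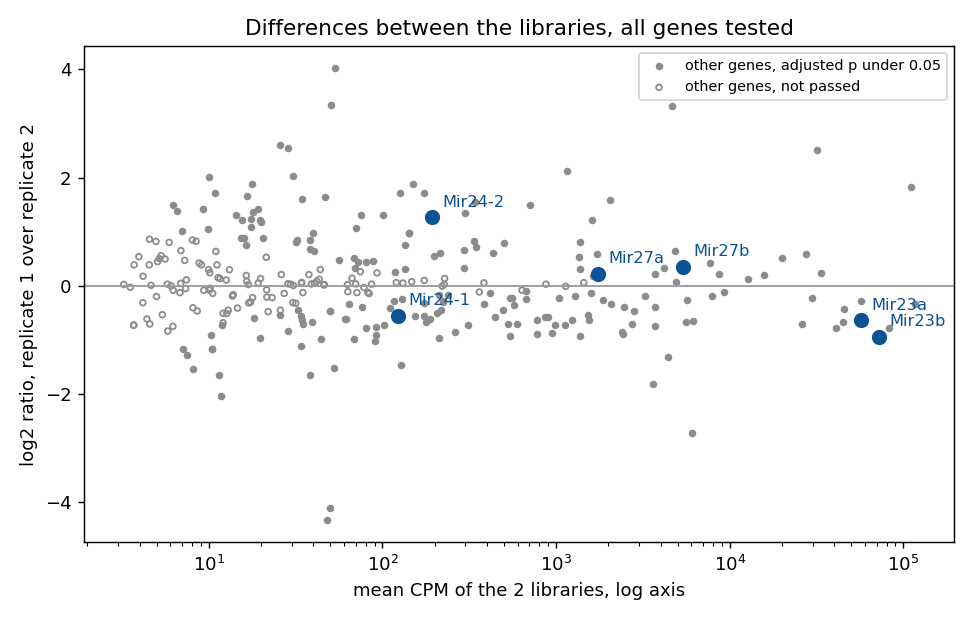
Log2 ratio of replicate 1 over replicate 2 against mean CPM (log axis) for the 309 genes tested, with filled points for genes past an adjusted p of 0.05. The Mir23 genes (log2 ratios -0.94 and -0.64) lie below 0, the Mir27 genes (0.35 and 0.22) above it, and the Mir24 genes on either side.

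Other microRNA genes known from vessels split between the libraries. Of 18 listed, 17 were found by symbol and 16 were tested, with 3 higher and 9 lower in replicate 1 and 4 that missed the threshold. The gene listed as Mir92a-1 stands in the annotation as Mir92-1, with 6310 counts in replicate 1 against 3963 in replicate 2. Its log2 ratio was 0.06 and missed the threshold too. Without Mir92-1, their median log2 ratio was -0.50, against -0.01 over all genes tested, and 12 of 16 passed, against 63.4% of all. Mir126a, the endothelial microRNA that supports vessel integrity, was higher in replicate 1 with a log2 ratio of 1.83, and so was Mir210, a gene induced by low oxygen, with 1.71. The smooth muscle genes Mir143 (-0.77) and Mir145a (-1.82) and the vascular pair Mir221 (-0.89) and Mir222 (-0.73) were lower in replicate 1, as the Mir23 genes were.

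MicroRNA genes known from growth of heart muscle cells also moved in both directions. Of 18 listed and found, 15 were tested, with 8 higher and 4 lower in replicate 1 and 3 that missed the threshold. Their median log2 ratio was 0.33 against -0.01 over all genes, and 12 of 15 passed, against 63.4% of all. Mir195a (log2 ratio 3.33) and Mir22 (2.51), both known to enlarge cardiomyocytes when overexpressed in mice, and the myosin-hosted Mir208a (0.54) and Mir499 (0.33) were higher in replicate 1. Mir21a, known from cardiac fibroblasts, was lower (-0.39), and so was Mir378a (-0.33). In contrast, Mir214 of the same list was higher (1.59), and Mir199b (0.85) missed the threshold. The endothelial gene Mir126a and the heart muscle genes Mir208a, Mir208b (0.84) and Mir499 were thus higher in replicate 1, as the Mir27 genes and Mir24-2 were. The heart muscle gene Mir1a-2 (0.04) missed the threshold. Smooth muscle genes Mir143 and Mir145a were lower, as the Mir23 genes and Mir24-1 were. The part of these cell types in the members' differences was not tested.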

How the data were processed

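For each library the authors deposited 1 table of raw counts of reads per microRNA gene, on build mm10 with gene annotation M21, per the file headers of the readme. The aligner is not given in the sources used here. Counts on the gene's own strand were analysed. The 4 rows of unassigned reads (unmapped, several loci, no gene, ambiguous: 19.0%, 42.4%, 6.94% and 0% of 13233055 reads in replicate 1, and 17.5%, 43.2%, 7.11% and 0% of 8930289 in replicate 2) stayed out of totals and tests.

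All 2202 identifiers matched annotation M21. Sequences came from RefSeq. CPM were computed over gene counts, with exact 95% Clopper-Pearson intervals. Genes kept by edgeR 4.0.16 filterByExpr (minimum count 10) were compared between libraries by exact binomial tests given TMM-scaled totals, at an adjusted p threshold of 0.05. Quasi-likelihood tests could not be fitted with 1 library a side. The binomial test with its adjustment was tried on simulated counts that held counting (Poisson) error alone. TMM scaling, the filter and further spread between libraries were not part of that trial. The libraries were not duplicates: chi-square over genes with counts was 830 per degree of freedom.

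Members and lists were chosen with earlier results of these data known. Named genes were the members, their opposite-strand partners, genes sharing a seed (same or 1 base earlier), the nearest 3 genes of each, and the lists. Tissue genes (heart muscle, endothelium, neurons, liver and pancreas) were named as well. Alternatives covered strand, scaling (DESeq2 1.42.0), filter, denominator, pseudocount and each replicate. The classes of shared arms were added after the data were seen. Software was R 4.3.3 and Python 3.11.15 with scipy 1.17.1, pandas 2.3.3 and numpy 2.4.6.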

Additional observations from a re-analysis of the deposited data

Results flagged for a closer look

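The count column for the strand opposite the gene held reads at Mir24-1 above the limit of 3 counts that a count of 0 allows, with 47 in replicate 1 and 26 in replicate 2. These equal the counts of Mir3074-1, which lies on that strand.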

How the results depend on the processing

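The share of the 6 members, 13.6%, came to 4.35% over all reads and to 5.81% over gene counts plus reads at several loci, as follows from the larger denominators. It was 17.9% regardless of strand, where gene counts fell to 2906600 in replicate 1 and 2307809 in replicate 2. Mir126a then kept 29 and 8 counts and Mir378a 0 in both, so this higher share follows from a smaller denominator. Without Mir126a and Mir22 in the denominator the share was 15.7%, an alternative chosen after the data were seen. Leaving out a replicate gave 10.5% to 16.7% for this share, 1.19 to 1.40 for the ratio of the chromosome 13 to the chromosome 8 cluster, 1.11 to 1.37 for Mir23b over Mir23a, 2.94 to 3.21 for Mir27b over Mir27a, 8.25 to 20.2 for Mir23b over Mir27b and 23.9 to 43.5 for Mir23a over Mir27a. Mir24-1 over Mir24-2 ranged from 0.370 to 1.31 and crossed 1. Ignoring strand left no counts for the Mir24 genes, so that ratio had no value and 4 members were tested, all past the threshold. With DESeq2 size factors, plain totals, no filter or a minimum count of 50, 6 of 6 members passed and kept their direction, with log2 ratios from -0.94 to -0.80 for Mir23b and from 0.22 to 0.37 for Mir27a. Genes past the test numbered 196, and 147 to 209 under the alternatives, and 11 to 14 listed vascular or hypertrophy genes passed against 12 of each. Without the filter the median log2 ratio of genes tested was higher by 0.10. The 18 nearest genes were the same with a pseudocount of 5. The tests could not be repeated without a replicate. No paired analysis was possible because the design holds 1 group.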

Other observations

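Pairs of genes were also compared across the whole table, after the members' values had been seen and with no test. Of 125 pairs of tested genes with the same number in their names but in different clusters, 69.6% had log2 ratios of the same sign, with a median difference of 0.46 on the log2 scale. Of 254 pairs within one cluster (same strand, gaps up to 10 kb), 50.4% had the same sign, with a median difference of 0.57. Over all 47586 pairs these values were 49.8% and 0.75. Pairs share genes and come from the same 2 libraries, so they are not independent. Among the members, 2 of 3 same-number pairs and 2 of 6 same-cluster pairs had the same sign.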
